A study of Homo sapiens with 8 samples.

Results

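The drug efflux ABC transporters are ATP-binding cassette proteins of the plasma membrane that pump drugs and their conjugates out of cells. The 10 genes ABCB1, ABCB5, ABCC1, ABCC2, ABCC3, ABCC4, ABCC5, ABCC6, ABCC10 and ABCG2 were chosen by function, with earlier results of these data known. Each was read from the probe set whose platform annotation names only that gene, taking the one of highest mean where there were several. Such a probe set was found for 9 of the 10, out of 18417 named genes, and each of the 9 had exactly 1. ABCC6, known for its mutation in a calcifying disease of connective tissue, was not analysed here.

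Expression was measured on 8 Affymetrix Human Gene 1.0 ST arrays of established human tumour lines sorted with an antibody against ABCB5 protein. The ABCB5-positive cells gave 4 arrays and the ABCB5-negative cells 4, with 1 array of each population from each of COLO741, SW620, HT29 and HCT116. By their labels COLO741 and HCT116 are colon carcinoma, SW620 is a lymph node metastasis of one, and HT29 is colon adenocarcinoma. SW620 is the name on the samples; the description of the series has SW480 instead. All cells were grown in RPMI 1640 with serum and antibiotics, and no drug treatment is named. Both arrays of a line are its sorted populations, and nothing in the labels says that they came from separate cultures, so a p-value between lines measures the spread between sorted arrays of a line and may be technical in part.

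As background, these pumps bind ATP at paired nucleotide-binding folds and use its hydrolysis to carry substrates outward. ABCB1, P-glycoprotein, exports bulky hydrophobic drugs such as anthracyclines, vinca alkaloids and taxanes, and ABCB5 is its relative, described in melanocytic and stem cells. The ABCC proteins, known as multidrug resistance-associated proteins, mostly export organic anions and conjugates with glutathione or glucuronic acid, and ABCG2, the breast cancer resistance protein, works as a dimer and exports topoisomerase inhibitors among others. In the intestine ABCB1, ABCC2 and ABCG2 lie on the apical membrane and return compounds to the lumen, whereas ABCC3 lies on the basolateral side.

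The promoter windows of 3 genes with wide differences among the lines are shown so that the values can be read against them. RefSeq windows of 300 bases (250 before and 50 after a start, build GRCh38.p14) were found for 7 of the 10 genes. For ABCB1 and ABCG2, which have 2 and 5 such windows, the one of highest GC content is printed. Capitals mark matches on either strand to the GC box GGGCGG, the CCAAT box, the TATA box TATAAA, the E-box CACGTG or the AP-1 site TGACTCA.
ABCB1 (chr7:87600835-87601134, minus strand): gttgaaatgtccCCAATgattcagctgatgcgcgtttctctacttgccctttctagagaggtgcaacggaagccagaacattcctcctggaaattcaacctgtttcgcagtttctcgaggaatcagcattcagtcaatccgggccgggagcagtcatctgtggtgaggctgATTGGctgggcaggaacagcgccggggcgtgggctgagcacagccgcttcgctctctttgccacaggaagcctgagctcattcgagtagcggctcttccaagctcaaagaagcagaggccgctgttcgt
ABCC2 (chr10:99782390-99782689, plus strand): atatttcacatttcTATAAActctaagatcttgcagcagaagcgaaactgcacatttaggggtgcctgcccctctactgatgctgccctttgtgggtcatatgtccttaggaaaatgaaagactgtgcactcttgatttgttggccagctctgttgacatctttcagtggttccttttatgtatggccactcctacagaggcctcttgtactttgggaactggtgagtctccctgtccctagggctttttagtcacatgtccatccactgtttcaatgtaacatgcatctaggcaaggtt
ABCG2 (chr4:88158810-88159109, minus strand): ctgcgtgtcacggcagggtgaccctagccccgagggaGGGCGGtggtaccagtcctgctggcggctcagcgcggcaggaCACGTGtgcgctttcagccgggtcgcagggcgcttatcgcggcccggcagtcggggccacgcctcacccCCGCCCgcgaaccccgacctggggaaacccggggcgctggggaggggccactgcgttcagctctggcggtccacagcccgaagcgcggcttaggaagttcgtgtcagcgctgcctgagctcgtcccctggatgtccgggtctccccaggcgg
The ABCB1 window held 2 CCAAT boxes and 0 GC boxes, the ABCC2 window 1 TATA box, and the ABCG2 window 2 GC boxes and 1 E-box. Of 35116 such windows, 34.6% held the CCAAT box, 11.5% the TATA box, 45% the GC box, 7.26% the E-box and 4.95% the AP-1 site. GC content was 55.3% in the ABCB1 window, 45% in the ABCC2 window and 72.3% in the ABCG2 window. These matches describe letters only.

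All levels are log2 expression values as the authors deposited them, and levels of different genes are not compared, because probe sets differ in brightness. A value was called above background on an array when it passed the 95th percentile of the values there of 381 olfactory receptor probe sets, whose genes serve smell and should be silent in these lines. That limit was 7.40 to 7.66 depending on the array. The markers bore out the colon label to differing degrees in SW620, HT29 and HCT116. In COLO741 they mostly went against it. Of 11 markers of colon epithelium, 6 were above background on both COLO741 arrays, against 9 on both SW620 arrays, 10 and 11 on the ABCB5-positive and ABCB5-negative HT29 arrays, and 8 on both HCT116 arrays. In COLO741 the keratin gene KRT18 was at 11.9 and 11.7 and the intestinal factor CDX1 at 8.72 and 8.74 on the ABCB5-positive and ABCB5-negative arrays. On the arrays of the other lines KRT18 was at 14.0 to 14.7 and CDX1 at 8.53 to 8.92. Against the mean of the other lines, limma called 10 of the 11 markers lower in COLO741 and 0 higher, where 26.1% of all genes were lower and 23.7% higher. EPCAM, an adhesion protein of epithelia, was at 13.3 to 13.8 in SW620, HT29 and HCT116 and at 5.36 and 6.43 in COLO741, below background. All 8 named melanocyte markers were above background on both COLO741 arrays, with a median of 12.4 on each, against 1 to 3 of 8 on the other arrays. Against the mean of the other lines, limma called all 8 higher in COLO741, where 23.7% of all genes were higher. The ABCB5-positive SW620 array had 8 of 12 leukocyte markers above background, against 4 on the ABCB5-negative SW620 array and 2 to 5 on the others, with the pan-leukocyte gene PTPRC still below background at 6.96. Its CDH1, the epithelial cadherin, was 11.5, against 9.98 on the ABCB5-negative SW620 array, while EPCAM was 13.5 against 13.4 and KRT8 14.6 against 14.4. Endothelial markers were above background for 0 to 2 of 5 genes and fibroblast markers for 3 to 5 of 7. In bulk RNA, fewer cells of a type and less RNA per cell cannot be told apart.

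ABCC1, ABCC3, ABCC4, ABCC5 and ABCC10 were above background on all 8 arrays. ABCC2 was above it on 7 arrays, ABCB1 on 4, ABCG2 on 3 and ABCB5 on 2. With each value below background counted at the background limit of its array, a setting chosen after seeing the data, the highest and lowest line means lay at least 0.33 log2 units apart for ABCC10 and at least 4.50 for ABCC3. The largest difference between populations within a line was 0.09 for ABCC3 but 0.53 for ABCC1, close to its range of 0.69 among lines, and 1.28 for ABCB5.

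**Figure D1:**
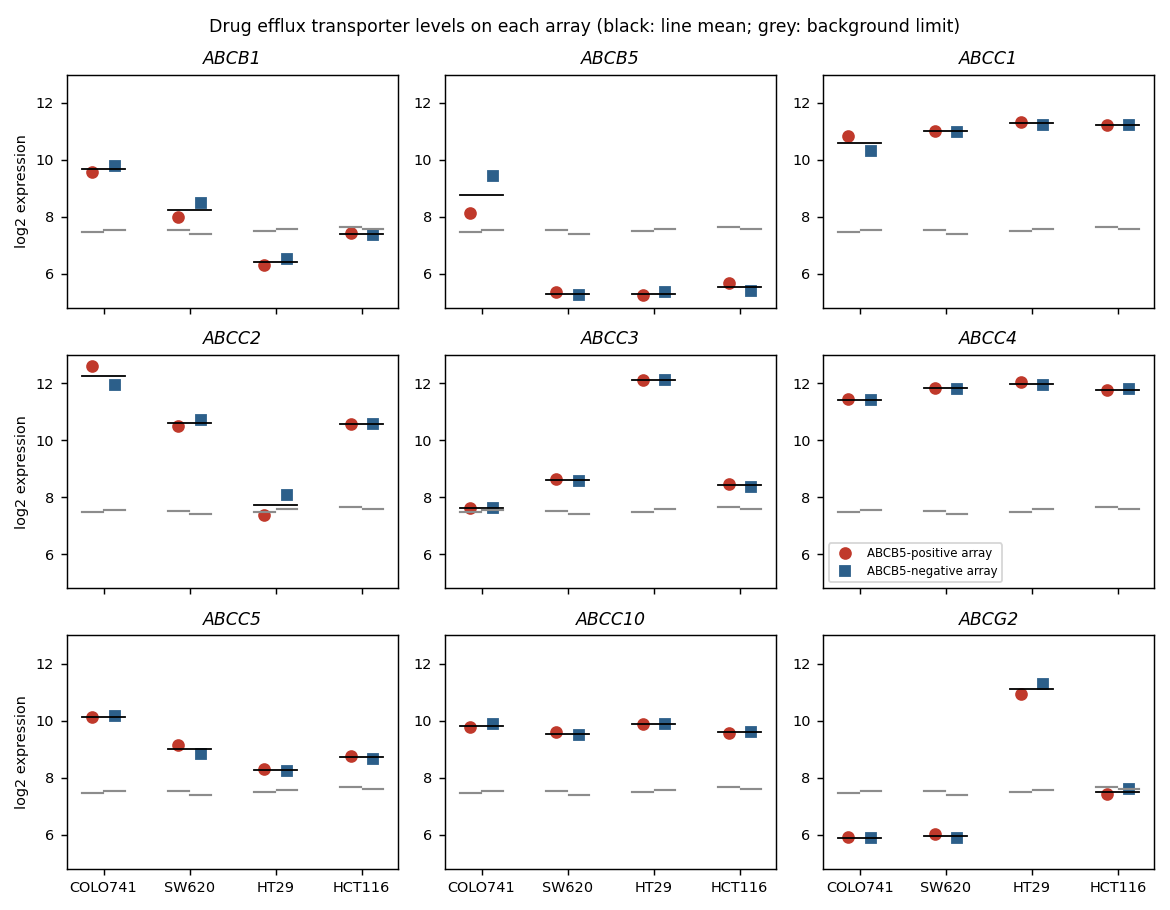
Log2 expression (y axis) of the 9 measured transporters in the 4 lines (x axis), with red circles for ABCB5-positive and blue squares for ABCB5-negative arrays, black bars for line means and grey bars for the background limit of each array. ABCC3 and ABCG2 stand highest in HT29, ABCB1, ABCB5, ABCC2 and ABCC5 highest in COLO741, and ABCC1, ABCC4 and ABCC10 are nearly level.

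ABCB1 was graded over the lines. Its log2 level was 9.57 on the ABCB5-positive and 9.80 on the ABCB5-negative array of COLO741, 8.01 and 8.499 in SW620, 7.43 and 7.37 in HCT116, and 6.32 and 6.52 in HT29, in the same order of populations. The groups of arrays did not overlap between any lines, though HCT116 and HT29 were both below background. COLO741 exceeded SW620 by 1.43 ± 0.13 (SE), or 2.70-fold, with a limma adjusted p of 0.000242. Against HT29, COLO741 was at least 4.42-fold higher (adjusted p = 5.32e-06), and against HCT116 at least 4.18-fold higher (adjusted p = 3.49e-05), counting the dim lines at the background limit. Here and below, a p-value beside an at-least fold is limma's on the values as deposited, and the bound itself was not tested. SW620 was at least 1.64-fold above HT29 (adjusted p = 0.000109) and at least 1.55-fold above HCT116 (adjusted p = 0.00314). ABCB4, the phosphatidylcholine exporter and the gene next to ABCB1 on chromosome 7, was below background on all 8 arrays, with line means of 5.73 to 6.34.

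ABCB5 was above background in COLO741 alone, at 8.14 on the ABCB5-positive and 9.42 on the ABCB5-negative array, a transcript difference opposite to the protein label. The other 6 arrays lay between 5.24 and 5.69 and gave no order among SW620, HT29 and HCT116 (adjusted p of 0.609 to 0.999 for the 3 pairs, limma). COLO741 was at least 2.36-fold above the mean of the other lines (adjusted p = 0.000124), and at least 2.49-fold above SW620, 2.36-fold above HT29 and 2.23-fold above HCT116. The fitted difference of 3.40 rests on 2 unlike COLO741 arrays, and was 2.71 without the ABCB5-negative and 4.08 without the ABCB5-positive one. ABCB5 passed the filter on low means only through COLO741, where it is high. The fitted values that put SW620, HT29 and HCT116 lower than the mean of their other lines rest on COLO741 in that mean, and carry no measured fold.

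ABCC2, which exports glucuronide and glutathione conjugates at apical membranes, ranged over at least 4.49 log2 units among the lines with dim values at the limit. ABCG2 ranged over at least 3.65 by that measure and 5.21 as deposited, so the order of ABCC2, ABCC3 and ABCG2 by range is not settled. ABCC2 was 12.6 and 11.95 in COLO741 on the ABCB5-positive and ABCB5-negative arrays, 10.5 and 10.7 in SW620, 10.6 on each array of HCT116, and 7.37 and 8.07 in HT29. SW620 and HCT116 overlapped (difference of 0.02, adjusted p = 0.954), whereas COLO741 lay above both and HT29 below both. COLO741 exceeded SW620 3.18-fold (1.67 ± 0.28 log2, SE, adjusted p = 0.00314) and HCT116 3.23-fold (adjusted p = 0.00304). HT29 was 7.38-fold lower than SW620 (adjusted p = 0.000356) and 7.26-fold lower than HCT116 (adjusted p = 0.000384). Only 1 of its 2 arrays, the ABCB5-negative one, was above background, and with the other at the limit these folds are at least 7.06 and 6.94.

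ABCC3, the basolateral conjugate exporter, ran the other way. HT29 had 12.1 on each array, SW620 8.64 and 8.57 on the ABCB5-positive and ABCB5-negative arrays, HCT116 8.46 and 8.38, and COLO741 7.62 and 7.63, just above background. HT29 stood 14.9-fold above the mean of the other 3 lines (3.90 ± 0.07 log2, SE, adjusted p = 6.45e-07) and 22.6-fold above COLO741. SW620 and HCT116 did not differ beyond their spread (0.19 ± 0.08, adjusted p = 0.128), and COLO741 was 1.98-fold lower than SW620 (adjusted p = 0.000160) and 1.74-fold lower than HCT116 (adjusted p = 0.000441). ABCC2 and ABCC3 thus had their lowest and highest levels in the same line, HT29, and their highest and lowest in COLO741.

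ABCG2 was high in 1 line. HT29 had 10.9 on the ABCB5-positive and 11.3 on the ABCB5-negative array, and HCT116 7.43 and 7.59, where only the ABCB5-negative array was above background. COLO741 had 5.91 and 5.89, and SW620 6.03 and 5.89, all below background. HT29 was 12.1-fold above HCT116 (3.60 ± 0.13 log2, SE, adjusted p = 8.08e-06), or at least 11.2-fold with the dim HCT116 array at its limit. It was at least 12.2-fold above COLO741 (adjusted p = 7.48e-07) and at least 12.5-fold above SW620 (adjusted p = 1.87e-06). COLO741 and SW620 did not differ beyond their spread (adjusted p = 0.735).

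ABCC5, an exporter of cyclic nucleotides and nucleotide analogues, followed the order of ABCB1 as deposited, though ABCB1 was below background in HCT116 and HT29. ABCC5 was 10.1 and 10.2 in COLO741 on the ABCB5-positive and ABCB5-negative arrays, 9.15 and 8.84 in SW620, 8.77 and 8.66 in HCT116, and 8.29 and 8.22 in HT29. No arrays overlapped between lines, but SW620 and HCT116 did not differ beyond their spread (0.28 ± 0.11, SE, adjusted p = 0.0790). COLO741 exceeded SW620 2.22-fold (adjusted p = 0.000214) and HT29 3.71-fold (adjusted p = 1.94e-05), and HT29 was 1.37-fold lower than HCT116 (adjusted p = 0.0142).

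ABCC1, ABCC4 and ABCC10 were nearly level. ABCC1, the exporter of glutathione conjugates that also carries anthracyclines, was lowest in COLO741 at 10.9 on the ABCB5-positive and 10.3 on the ABCB5-negative array, against 11.0 to 11.3 in the other lines, whose pairs were not called (adjusted p of 0.166 to 0.753), and its own difference from SW620 just missed the threshold (adjusted p = 0.0505). COLO741 was 1.49-fold lower than their mean (-0.58 ± 0.11, SE, adjusted p = 0.00608). ABCC4, an exporter of cyclic nucleotides and bile acids, was 11.5 and 11.4 in COLO741 and 11.8 to 12.1 elsewhere, 1.35-fold lower in COLO741 (adjusted p = 0.00237). ABCC10, known to export taxanes, ranged from 9.49 to 9.88 over all 8 arrays, with HT29 and SW620 at its ends, 1.26-fold apart (adjusted p = 0.0255).

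Of the 6 pairs of lines, COLO741 against HT29 was called for 8 of 9 transporters (45.4% of all genes), COLO741 against HCT116 for 8 (46%), COLO741 against SW620 for 7 (47.1%), SW620 against HT29 for 6 (40.2%), HT29 against HCT116 for 6 (39.1%) and SW620 against HCT116 for 2 (39%). The calls of HT29 against HCT116 include ABCB1, below background on every array of both lines, so that it has no measured fold there. They also include ABCC10 at the edge (limma adjusted p = 0.0480).

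Over all lines, limma's F-test, with Benjamini-Hochberg adjustment over 16851 genes, called 9 of 9 transporters at 0.05. Since 67.4% of all genes tested were called, that count says little, and the sizes say more. The transporters were chosen with earlier results of these data known, so the sizes are a description. With dim values at the limit, 6 of the 9 genes had line means at least 1 log2 unit apart, as did 28.1% of all genes tested, and their median range was 1.89, against 0.56 over all genes. On the values as deposited the medians were 3.27 and 0.64, the first being the range of ABCB1 down to an HT29 level below background. At the limit, the range was matched or passed by 1.199% of all genes for ABCC3, 1.21% for ABCC2, 2.82% for ABCG2, 9.36% for ABCB1, 11.4% for ABCC5 and 19.5% for ABCB5. For ABCC1, ABCC4 and ABCC10 that share was 42.3%, 50.3% and 66.1%.

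Each line was also set against the mean of the other 3. HT29 was called for 9 of 9 transporters, 5 higher and 4 lower, where 43.1% of all genes were called, 19.8% higher and 23.3% lower. COLO741 was called for 8 of 9, 4 higher and 4 lower, against 49.8% of all genes, 23.7% higher and 26.1% lower, and the exception was ABCC10 (adjusted p = 0.129). SW620 was called for 5 of 9, 1 higher and 4 lower, against 45.2% of all genes, 22.2% higher and 23% lower. HCT116 was called for 4 of 9, 0 higher and 4 lower, against 42.3% of all genes, 21.8% higher and 20.5% lower. The shares for SW620 and HCT116 were near those of all genes. Among the lower calls of HT29, SW620 and HCT116 is ABCB5, dim on all their arrays and lower only against a mean holding COLO741. A lower call can likewise rest on HT29. SW620 was called lower for ABCC3 (8.61) though only HT29 (12.1) was higher, and for ABCG2 though not called against COLO741 (limma adjusted p = 0.735). HCT116 was called lower for ABCC3 and ABCC5 without being the lowest line for either. For ABCC3 the highest line was again HT29. For ABCC5 it was COLO741 (10.1), and HT29 (8.26) lay below HCT116 (8.72). HT29 held the highest mean of 5 transporters and COLO741 of 4, a count with no share over all genes beside it. In HT29 that place was not called against the next line for ABCC1, ABCC4 and ABCC10. The limma adjusted p was 0.753 for ABCC1 against HCT116, 0.176 for ABCC4 against SW620 and 0.699 for ABCC10 against COLO741. The count for COLO741 stayed at 8 when any single array was left out, the ABCB5-positive SW620 array among them, and was 7 under ordinary least squares, which ended the call of ABCC1 (adjusted p = 0.0611). The others moved. HT29 fell to 5 without either of its arrays, its calls for ABCC1 (adjusted p = 0.04996) and ABCC10 (adjusted p = 0.0496) being at the edge. SW620 had 3 calls without its ABCB5-positive array, 2 without its ABCB5-negative array and 3 without the ABCB5-negative HT29 array, and HCT116 had 2 without either of its own.

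**Figure D2:**
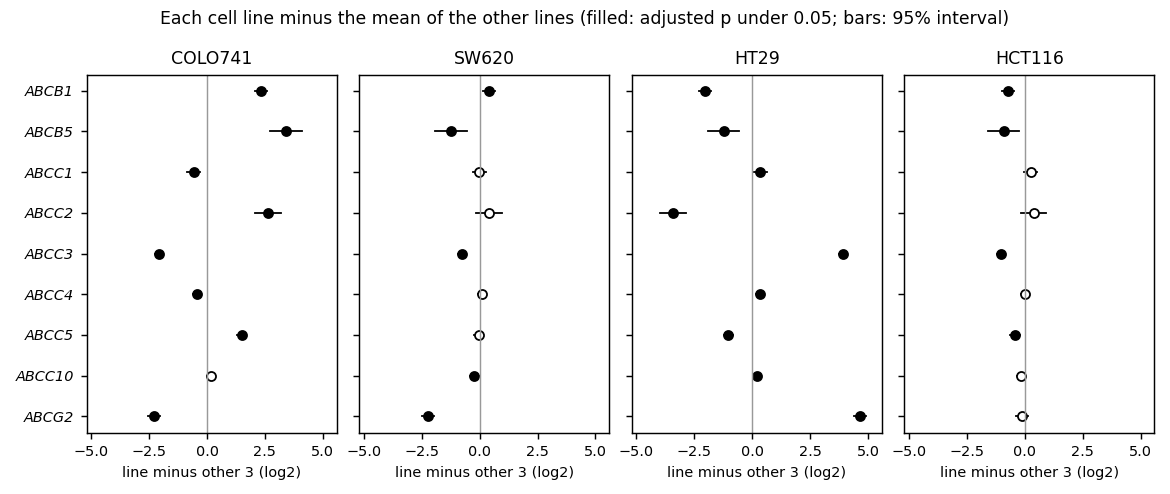
Log2 difference (x axis) of each line from the mean of the other 3 for the 9 transporters (y axis), 1 panel per line, with 95% intervals from limma and filled points for an adjusted p under 0.05. By the fitted values, which for dim genes are not measured folds, HT29 is far higher for ABCG2 (4.65) and ABCC3 (3.90) and far lower for ABCC2 (-3.43), and COLO741 is higher for ABCB5 (3.40), ABCC2 (2.64) and ABCB1 (2.33).

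The genes whose pattern over the 8 arrays was most like that of each transporter were named as a description, among 5319 genes with line means at least 1 unit apart. The arrays come from only 4 lines, so a high correlation needs only the same order and spacing of lines. For ABCB5 they were MCF2, a guanine nucleotide exchange factor, SEMA6D, a semaphorin, and TRIM63, a ubiquitin ligase known from muscle, with Pearson's r of 0.998, 0.997 and 0.996. MCF2 was 8.69 in COLO741 and 5.17 to 5.29 in the others. For ABCB1 they were TACC1, SPSB1 and FN1, the fibronectin gene, with r of 0.990, 0.988 and 0.986, and FN1 was 13.4 in COLO741, 9.89 in SW620, 8.63 in HCT116 and 6.87 in HT29. For ABCC2 they were PFKFB4, a regulator of glycolysis, QKI, an RNA-binding protein, and MYO5A, a myosin of organelle transport, with r of 0.991, 0.984 and 0.984. For ABCC5 they were ASAH1, the acid ceramidase, TRIB2 and TMEM117, with r of 0.993, 0.992 and 0.990. For ABCC3 they were TRNP1, MMP7, a matrix metalloproteinase, and SSH3, with r of 0.996, 0.994 and 0.992, and MMP7 was 13.1 in HT29 and 5.91 to 7.12 in the others. For ABCG2 they were ESAM, an adhesion molecule, the small nucleolar RNA gene SNORD102 and P2RY2, a nucleotide receptor, with r of 0.998, 0.998 and 0.997.

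The sorted populations were compared with the line as a block. None of the 9 transporters was called between ABCB5-positive and ABCB5-negative cells, and 0% of all 16851 genes were, while 746 genes and 0 transporters had an unadjusted p under 0.05 by limma. ABCB1 came nearest, at 7.83 ± 1.35 in ABCB5-positive and 8.05 ± 1.43 in ABCB5-negative arrays (SD, n = 4 each), a difference of -0.21 ± 0.23 (SD, n = 4 lines) with a limma adjusted p of 0.896. It was lower in the ABCB5-positive cells of COLO741 (-0.23), SW620 (-0.49) and HT29 (-0.19), and 0.06 higher in HCT116, but the HT29 and HCT116 values were below background. The 95% interval of its difference ran from -0.44 to 0.02, or 0.735-fold to 1.01-fold.

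ABCC1 was the only transporter with 1 sign in all 4 lines. Its difference was 0.17 ± 0.24 (SD, n = 4; limma adjusted p = 0.896), made of 0.53 for COLO741, 0.04 for SW620, 0.13 for HT29 and 0.0024 for HCT116, and it was 0.06 ± 0.06 without COLO741. ABCC5 differed by 0.11 ± 0.14, with 3 of 4 lines higher and its largest value, 0.31, in SW620, where the ABCB5-positive array also had the leukocyte markers given above, whose part was not tested. The ABCB5 transcript differed by -0.25 ± 0.70, with an exact two-sided sign-flip permutation p of 0.75 over the 4 lines, where the smallest such p is 0.13.

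ABCC2 went opposite ways in the lines where it moved most, at 0.64 in COLO741 and -0.70 in HT29, where the ABCB5-positive array was below background (-0.58 with it at the limit), and averaged -0.07 ± 0.56 (SD, n = 4). ABCG2 averaged -0.09 ± 0.22, and in HT29, where both its arrays were above background, the ABCB5-positive array was 0.36 lower. The steadiest were ABCC3 (0.03 ± 0.06), ABCC4 (0.04 ± 0.06) and ABCC10 (-0.01 ± 0.08). For these 3 the 95% intervals ran from -0.11 to 0.17, from -0.11 to 0.18 and from -0.16 to 0.14, which keeps the mean difference of each within 0.895-fold and 1.14-fold. The widest intervals were those of ABCB5, from -0.85 to 0.34, and ABCC2, from -0.54 to 0.41. With 1 array per population and line, a difference within 1 line has no test.

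**Figure D3:**
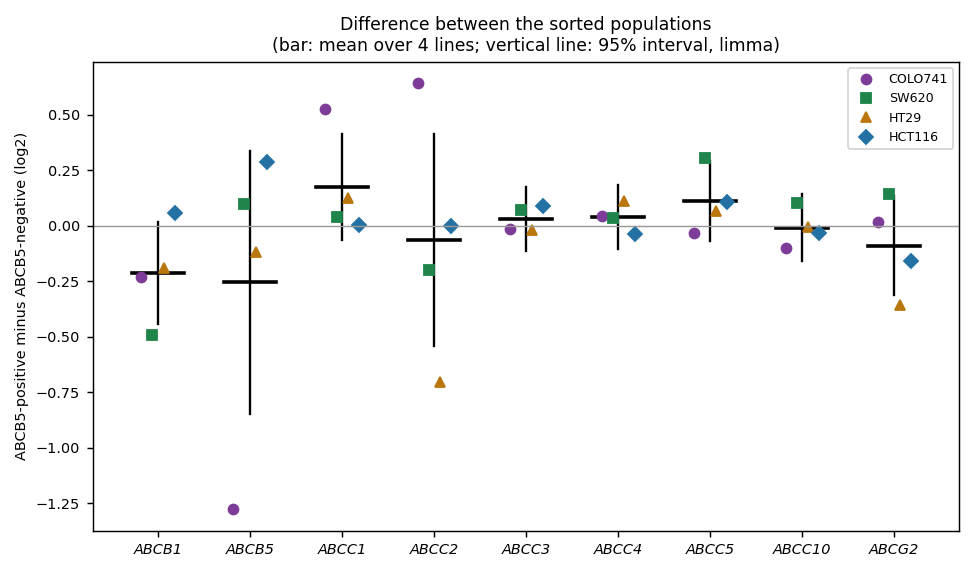
Difference of ABCB5-positive minus ABCB5-negative arrays (log2, y axis) for the 9 transporters (x axis), with 1 point per line, a horizontal bar for the mean of 4 lines and a vertical line for the 95% interval from limma. Every interval spans 0, and the points farthest from 0 are ABCB5 in COLO741 (-1.28), ABCC2 in HT29 (-0.70) and ABCC2 in COLO741 (0.64).

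The rest of the ABC family had a smaller median range than the transporters, a description with no test, both lists being chosen with earlier results known. Of 38 other ABC genes 29 were tested, and the F-test among lines called 20 of them, or 69.0%, beside 67.4% of all genes, with a median range of 0.56 at the limit. The 2 with the smallest p were CFTR, the chloride channel of the ABCC subfamily, and TAP1, a peptide transporter of antigen presentation. CFTR was 11.1 in HT29 and below background in the other lines at 5.71 to 5.84 (adjusted p = 2.57e-06), so that it stood highest in HT29 like ABCC3 and ABCG2. TAP1 was 11.0 in COLO741, 10.7 in HCT116, 10.0 in SW620 and 8.60 in HT29 (adjusted p = 1.64e-05). Between the sorted populations 0 of the 29 were called by limma, 3 had an unadjusted p under 0.05, 13 were higher and the median was -0.01. TAP1 had the smallest p of them, at 0.21 ± 0.14 (SD, n = 4, adjusted p = 0.896).

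Genes of phase I metabolism, which oxidise and reduce drugs before conjugation, had a median range of 2.44 with dim values at the limit. The F-test among the lines called 14 of 16, or 87.5%, beside 67.4% of all genes. CYP3A5, a cytochrome that shares substrates with ABCB1, was 11.1 in HT29 and below background elsewhere at 6.31 to 6.79 (adjusted p = 2.02e-06). CBR1, the carbonyl reductase that acts on anthracyclines, was 11.2 in COLO741, 9.83 in SW620 and 9.99 in HT29 but 5.97, below background, in HCT116 (adjusted p = 1.86e-06). CYP2B6 had the smallest p of the list between the populations, at 0.31 ± 0.20 (SD, n = 4, limma adjusted p = 0.896), with HCT116 and COLO741 below background.

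Among conjugating enzymes 18 of 20, or 90%, were called among the lines, beside 67.4% of all genes, with a median range of 1.39 at the limit. GSTM4, a glutathione transferase of a clustered family of similar genes, was 12.6 in COLO741, 10.8 in SW620, 10.4 in HCT116 and 7.42 in HT29 (adjusted p = 1.25e-06). Only 1 HT29 array was above background. The order was that of ABCB1 as deposited, though ABCB1 was below background in HCT116 and HT29. GSTT1, another transferase, was 11.3 in HT29 and 10.9 in SW620 but 7.70 in COLO741 and 7.52 in HCT116 (adjusted p = 1.57e-06), with only 1 HCT116 array above background. Of the regulators of drug handling 7 of 8, or 87.5%, were called, beside the same 67.4% of all genes, with a median range of 0.70. RXRA, the partner of the xenobiotic receptors, was 11.2 in HT29, 10.4 in HCT116, 10.1 in COLO741 and 9.72 in SW620 (adjusted p = 0.000107), and NFE2L2, which controls glutathione genes, was 11.6 in SW620 and 12.3 to 12.6 in the others (adjusted p = 0.000221).

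Of the drug uptake carriers 13 of 17, or 76.5%, were called among the lines, near the 67.4% of all genes, with a median range of 0.73 at the limit. SLC28A3, a nucleoside carrier, was 10.2 in HT29 and below background at 6.47 to 6.54 in the others (adjusted p = 2.03e-06). SLC47A1, an organic cation extruder, was 10.2 in COLO741, 7.68 in SW620 and below background in HT29 at 6.90 and HCT116 at 6.81 (adjusted p = 2.41e-06). Of membrane anchors and other exporters 8 of 10, or 80%, were called, beside the same 67.4% of all genes, with a median range of 1.05. The smallest p was that of NHERF2, a scaffold of apical transporters, at 11.6 in HT29, 10.5 in HCT116, 9.94 in SW620 and 9.68 in COLO741 (adjusted p = 1.93e-05). CAV1, the caveolin of membrane invaginations, was 14.3 in HCT116, 12.9 in SW620, 12.4 in COLO741 and 11.6 in HT29 (adjusted p = 6.48e-05).

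Between the sorted populations limma called 0 genes in each of these 5 lists. Those with an unadjusted p under 0.05 numbered 2 of 16 for phase I metabolism, 1 of 20 for conjugation, 1 of 17 for uptake, 0 of 8 for regulators and 0 of 10 for anchors and other exporters, where all genes gave 4.43%. The medians of the differences lay between -0.05 and 0.12. GSTM4 had the smallest p of the conjugating enzymes at 0.19 ± 0.15 (SD, n = 4), SLC47A1 of the carriers at -0.17 ± 0.11, RXRA of the regulators at 0.15 ± 0.10 and ATP7A, a copper pump, of the anchors and exporters at -0.16 ± 0.22, each with an adjusted p of 0.896.

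**Figure D4:**
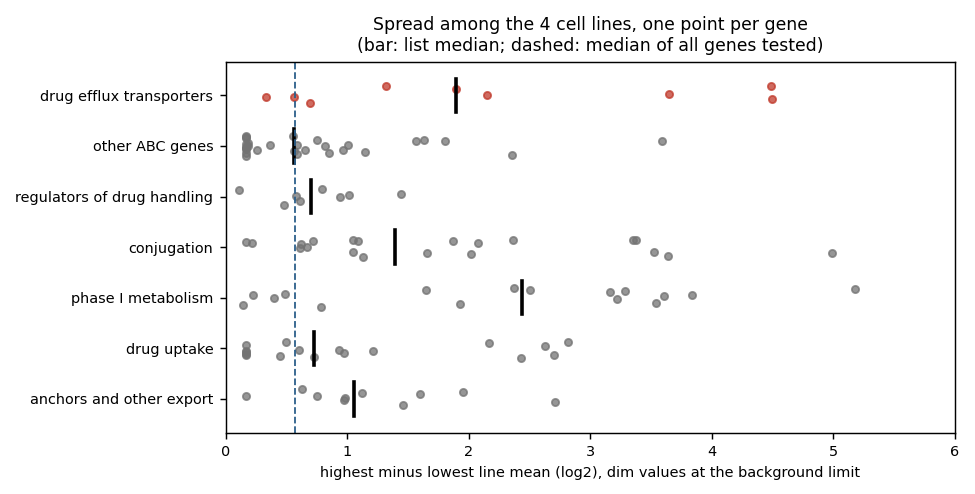
Highest minus lowest line mean (log2, x axis), with values below background counted at the limit of their array, for each gene of the drug efflux transporters (red) and of 6 lists of related genes (grey), with black bars for list medians and a dashed line for the median of all genes tested. The median is 1.89 for the transporters, 2.44 for phase I metabolism, 0.56 for the other ABC genes and 0.56 over all genes.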

How the data were processed

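The values the authors deposited cover 33297 probe sets on each of 8 arrays, 0 of them missing, and were taken as log2 intensities because they span 2.99 to 15.2; the scale is not named in the labels. The submitters' processing notes name Affymetrix Expression Console, without its settings. Array medians were 8.03 to 8.10, and no normalization was added. Gene names came from the annotation of the platform, with symbols updated by gene identifier (19429 of 19460 naming 1 gene matched; 1754 named several and 12083 were unlisted, and neither were used).

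Genes with a mean below 5.78, the median of the olfactory receptor probe sets, were left out (1566), leaving 16851 tested with limma 3.58.1 in R 4.3.3 (population and cell line as terms, two-sided, Benjamini-Hochberg at 0.05, 3 residual degrees of freedom plus 3.45 from moderation). The line was a block because each label ties an array to a line; after subtracting group means, arrays sharing a line had a correlation over genes of 0.932 to 0.964. The fits were tested on simulated data. The transporters and lists were chosen with earlier results of these data known. All transporters are named. Of each list of related genes, the 2 with the smallest p among lines and the 1 between populations are named, and for each transporter ranging over 1 unit the 3 most alike genes. Alternatives covered the terms, filters, scaling, probe set choice, moderation and arrays left out. The number of arrays limits precision.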

Additional observations from a re-analysis of the deposited data

Results flagged for a closer look

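The ABCB5 level of COLO741 stood apart from the other lines in both populations. It was 8.14 among the 4 ABCB5-positive arrays, with the nearest at 5.69, and 9.42 among the 4 ABCB5-negative arrays, with the nearest at 5.40. The gap was 0.845 and 0.964 of the whole range, above the limit that Dixon's test sets for 4 values. These were 2 of 27 sets of 4 values examined, and chance alone gives about 1 in 20. ABCB5 passed the filter on low means only through COLO741, and its values in the other lines were all below background. A gap at COLO741 was therefore largely fixed in advance, and neither the limit nor the chance rate serves as a test of it. With dim values, the share of the range is not a measured distance either. The melanocyte markers were high in the same line, and their part in the ABCB5 level was not tested.

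For ABCC2 the difference between ABCB5-positive and ABCB5-negative arrays was 0.64 in COLO741 and negative in each of the other lines, at -0.70 in HT29, -0.20 in SW620 and -0.0013 in HCT116. For ABCC5 it was -0.0344 in COLO741 and positive in the others, at 0.31 in SW620, 0.11 in HCT116 and 0.07 in HT29. Neither contrast between lines was tested, since each line has 1 array per population.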

How the results depend on the processing

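Between the sorted populations 0 of 9 transporters and 0 genes in all passed under all 13 alternatives, among them no replicate block (26 genes with an unadjusted p under 0.05), the line as a random block (772) and ordinary least squares (702). With the strict filter ABCB5 was not tested. The differences, none called, changed sign for ABCC10 with median centring (0.0075), and over the arrays left when 1 line was dropped they ran from -0.43 to 0.088 for ABCB5, -0.30 to 0.15 for ABCC2, -0.045 to 0.022 for ABCC10 and -0.17 to 5.67e-05 for ABCG2. The F-test among lines called 6 to 9 of 9 transporters over 20 alternatives. Against the other lines, ordinary least squares, where moderation lends no degrees of freedom, called 2 for SW620, 2 for HCT116, 6 for HT29 and 7 for COLO741, losing ABCC1 there (adjusted p = 0.0611). With 1 array left out the counts ran from 2 to 6 for SW620, 5 to 9 for HT29 and 2 to 6 for HCT116, with fewer arrays in the fit, the lone array of a line being assumed to vary like the others. Uncalled values near 0 changed sign for ABCC4 in HCT116 with median centring (-0.017), and with 1 array left out ran from -0.032 to 0.071 there, from -0.11 to 0.065 for ABCC1 in SW620 and from -0.18 to 0.085 for ABCC5 in SW620. Quantile normalization and median centring moved the median of all genes by at most 0.04 on any array.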

Other observations

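Set among all genes tested, the within-line differences between ABCB5-positive and ABCB5-negative arrays that stood out most among the transporters were those of ABCC2 in HT29, matched or passed in size by 0.914% of genes (1.04% with its dim ABCB5-positive array, and all other dim values, at the background limit), and of ABCB5 in COLO741, by 0.777%. For ABCB1 in SW620 that share was 3.73%, for ABCC2 in COLO741 4.33%, for ABCG2 in HT29 5.89% and for ABCC1 in COLO741 7.08%. The spread of all genes differed between lines, with an SD of these differences of 0.15 in HCT116, 0.19 in HT29, 0.24 in SW620 and 0.32 in COLO741. These are ranks within 1 pair of arrays, with no replicate.

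Several ABC genes outside the drug efflux group also had their highest mean in COLO741. The p-values given here are those of limma's F-test among the lines, which does not test which line was highest. ABCB6, a porphyrin transporter, was 10.2 in COLO741 and 9.10 to 9.62 elsewhere (adjusted p = 0.000171). ABCB9, a lysosomal peptide transporter, was 9.58 in COLO741 and 8.02 to 9.08 elsewhere (adjusted p = 7.34e-05). ABCA5, a lipid transporter, was 9.17 in COLO741 and 7.21 to 8.38 elsewhere (adjusted p = 0.000156). It was above background on only 5 of 8 arrays, and its HT29 mean of 7.21 was below the limit. ABCA2, a lipid transporter of lysosomes, was highest in HT29 at 10.6, with 8.80 to 10.0 in the others (adjusted p = 0.00263). These 4 were picked after their values were seen.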
